A study of Drosophila melanogaster with 76 samples.

Results

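Zelda and GAF peaks were compared in wild-type Drosophila melanogaster embryos labelled 2.5-3 h. The comparison rests on 4 peak lists, 2 from Zelda and 2 from GAF ChIP-seq, of 40 lists used here and 76 samples in the series. Chromatin immunoprecipitation followed by sequencing (ChIP-seq) recovers the DNA that a protein sits on, and a peak is an interval where the authors' peak caller found an excess of that DNA. The series asks what IntS11, the endonuclease of the Integrator complex, does in the early embryo, and the titles of these wild-type libraries also carry the words IntS11_mislocalized, which stand in the mutant titles too. Genotype was therefore read from WT and Mutant, and the alleles behind the mutant are not named in the labels. Whole embryos were fixed in 1.8% formaldehyde for 20 min, and each ChIP was done in duplicate. The labels do not say whether the duplicates came from separate collections, so p-values measure only the spread between these lists. Besides Zelda and GAF at 2.5-3 h in wild type, the comparison draws on Zelda and GAF at 2.5-3 h in the mutant. It also draws on Zelda and GAF at 1-1.5 h in the mutant and in wild type. IntS11, RNA polymerase II (Pol II) and its serine 5-phosphorylated form (pSer5) are taken from wild type. Mutant Pol II and pSer5 lists of both stages enter the list measures behind the adjusted p-values. Each group has 2 lists. Pol II lists of larvae labelled 48AEL, zygotic mutant and wild type, are used for a few closing values.

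Zelda, encoded by zld, is a maternally supplied zinc finger protein that binds nucleosomal DNA and opens chromatin at the genes switched on first in the zygote. GAF, the GAGA factor encoded by Trl, binds GA repeats, keeps promoters open and is known for its place at heat shock genes, at Hox gene elements and in satellite repeats. Both are called pioneer factors because chromatin becomes accessible where they bind. A whole-embryo peak does not say in which nuclei, or in what share of them, the factor was bound.

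Zelda had more and longer peaks than GAF in wild-type embryos at 2.5-3 h. The Zelda lists held 10419 and 11362 peaks, against 9062 and 8085 in the GAF lists. Zelda peaks covered 10.85 and 11.99 Mb, against 7.52 and 7.30 Mb for GAF, and their median lengths were 646 and 648 bp, against 541.5 and 581 bp. The Zelda and GAF lists did not overlap in any of these values. The covered length was 11.4 ± 0.806 Mb for Zelda and 7.41 ± 0.155 Mb for GAF (SD, n = 2 lists each). The exact two-sided permutation test of 2 lists against 2 cannot go below p = 0.333, which each of these measures gave. The order of Zelda above GAF did not recur at every stage and genotype. Over the 16 Zelda and GAF lists of 4 stage and genotype groups, labels permuted within each group, the exact two-sided p was 0.716 for peak number and 0.875 for covered length.

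Peaks present in both lists of a factor gave 8268 Zelda regions and 6521 GAF regions. Regions are merged peaks, and regions of the different factors count as shared when they overlap by at least 1 bp. Of the Zelda regions, 3969 (48.0%) met no GAF region and are called Zelda-only, and 4299 (52.0%) met one. Of the GAF regions, 4561 (69.9%) met a Zelda region and 1960 (30.1%) are GAF-only. Merged, the shared regions made 4095 loci. The split is not a clean one: 1153 Zelda-only regions (29.1%) had a peak in exactly 1 of the GAF lists, and 435 GAF-only regions (22.2%) had a peak in exactly 1 of the Zelda lists. Requiring only 1 list of a factor enlarges the classes, to 6541 Zelda-only regions without Zelda replicate 1 and to 3510 GAF-only regions without GAF replicate 2.

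Longer regions were shared more often for both factors. With regions split into 4 equal groups by length, 32.0% of the shortest Zelda regions (272 to 622 bp) and 78.6% of the longest (from 1571 bp up) met a GAF region. For GAF these shares were 53.2% of the regions of 270 to 549 bp and 85.3% of those from 1282 bp up. The median length was 749 bp for Zelda-only regions, 1461 bp for merged shared loci and 612.5 bp for GAF-only regions. Because a longer region meets any other list more easily, overlaps below are also given for regions of 500 to 1500 bp.

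Where both factors shared a locus, the Zelda peak was more often the longer. Of the 4095 shared loci, 2971 held exactly 1 peak in each of the 4 lists. Shared loci are chosen by overlap, so near peak centres follow in part from that choice. In those, the median distance between peak centres was 57.5 bp between the Zelda lists, 52.5 bp between the GAF lists and 94 to 99 bp between a Zelda and a GAF list. The distance between factors thus exceeded that between replicates of either factor, against median peak lengths of 874 and 930 bp for Zelda and 670 and 685 bp for GAF. Zelda had the longer peak in both lists at 53.4% of these loci, and GAF at 21.0%. The GAF peaks lay wholly inside the Zelda peaks at 31.8% of them, and the Zelda peaks inside the GAF peaks at 11.4%.

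Several of the longest shared loci were broad Zelda domains over patterning genes that held many short GAF peaks, while others were covered widely by both factors. The longest, at chr3R:6843940-6877759 (dm6), spans 33820 bp over ftz, a pair-rule gene, and part of Scr, a Hox gene that sets segment identity. Zelda covered 32945 and 33543 bp of it in 3 and 2 peaks, whereas GAF covered 6781 and 9749 bp in 10 and 13 peaks, the longest of them 1225 and 2050 bp. At chr2R:25207461-25230582, over the gap gene Kr, Zelda covered 21542 and 22851 bp, against 6613 and 6000 bp for GAF. At chr2R:9972507-9989681 the pair-rule gene eve, with its neighbours CG12134 and TER94, lay under a single Zelda peak of 17119 and 17175 bp, while GAF had 6 and 5 peaks covering 5212 and 5073 bp. In these loci every Zelda covered length lies above every GAF covered length.

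Other long loci had other shapes. At chr3R:6803257-6824766, which holds mir-10 and part of Scr, Zelda covered 20495 and 21436 bp and GAF 14779 and 15306 bp. At chr3L:11234862-11255161, over Ir68a and scyl, Zelda covered 19243 and 19789 bp and GAF 14254 and 12988 bp. GAF thus covered most of both loci, though less of them than Zelda. At chr2R:10533029-10547024, over lola, which encodes a family of BTB zinc finger proteins, the longest GAF peak measured 12392 and 13575 bp, whereas Zelda had 5 and 3 peaks, the longest 4337 and 6011 bp. Diap1, the inhibitor of apoptosis that holds caspases in check, had peaks of nearly equal length, 10214 and 10168 bp for Zelda and 10000 and 10063 bp for GAF. The first 22669 bp of arm 3L, next to the telomere, were covered by both factors over 20488 and 21194 bp for Zelda and 22244 and 22599 bp for GAF.

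The first and second longest Zelda-only regions lay in opa and near hry, the other 8 of the 10 longest at or near CG32816, CG46443, CG14506, CenG1A, CG34429, D, mir-9385 and abd-A, and the longest GAF-only regions lay mostly on X and Y. Zelda covered 9081 and 9445 bp of chr3R:4857326-4866784, inside opa, a pair-rule gene, where 1 GAF list had a single peak of 339 bp and the other none. A Zelda-only peak of 9016 and 8856 bp at chr3L:8659684-8668699 lay 7059 bp from hry (hairy), also a pair-rule gene, with no GAF peak in either list. Of the 10 longest GAF-only regions, 6 were on X and 2 on Y. They included chrX:3685950-3693081 in Mnt, which encodes a partner of Max that opposes Myc, with GAF peaks of 7132 and 6787 bp and a Zelda peak of 649 bp in 1 list only. At chrX:7690090-7696319 in CHES-1-like, a forkhead gene, GAF had 2 peaks in each list, the longest 3837 and 4443 bp, and Zelda had none. At chrX:3746003-3750782 in Tlk, a Tousled-like kinase gene, GAF had peaks of 4386 and 4780 bp and Zelda had none.

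The X chromosome took a larger share of GAF peaks than of Zelda peaks. At 2.5-3 h in wild type 9.92% and 9.95% of Zelda peaks lay on X, against 12.7% and 13.3% of GAF peaks. Zelda was below GAF in each of the 4 stage and genotype groups, by 3.75 percentage points on average. The exact two-sided permutation test within those groups gave p = 0.00154, the smallest it can give, and 0.0139 after Benjamini-Hochberg adjustment over the 9 list measures compared. The X share was not among the measures planned beforehand, and the adjustment does not correct for that choice. By class, X held 8.62% of Zelda-only regions, 12.1% of shared loci and 19.1% of GAF-only regions. Of all Zelda regions on X, 60.6% met a GAF region, and of all GAF regions on X, 58.4% met a Zelda region. On 2L, 2R, 3L and 3R the same shares were 49.0% to 51.8% of Zelda regions and 66.1% to 76.4% of GAF regions. On chromosome 4 they were 60.6% of Zelda regions and 68.0% of GAF regions.

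GAF-only regions were also frequent near centromeres and on Y. In the 5 Mb next to the centromere of each arm lay 8.69% of Zelda-only regions, 8.60% of shared loci and 29.8% of GAF-only regions. The Y chromosome held 5 Zelda-only regions, 3 shared loci and 66 GAF-only regions. Among whole lists, 8.70% and 9.41% of Zelda peaks and 16.7% and 15.3% of GAF peaks were centromere-proximal. Over all 16 lists Zelda was lower by 3.78 points, with an exact two-sided permutation p of 0.0262 and an adjusted p of 0.118 over the 9 measures, which misses the 0.05 threshold. The centromere-proximal share was not planned beforehand either. Zelda was below GAF in 3 of the 4 groups, and in the mutant at 1-1.5 h the lists overlapped, with 47.4% and 46.2% of Zelda peaks and 47.9% and 43.5% of GAF peaks. How reads from repeats were placed is not given in the sources used here, and its part in these counts was not tested.

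**Figure D1:**
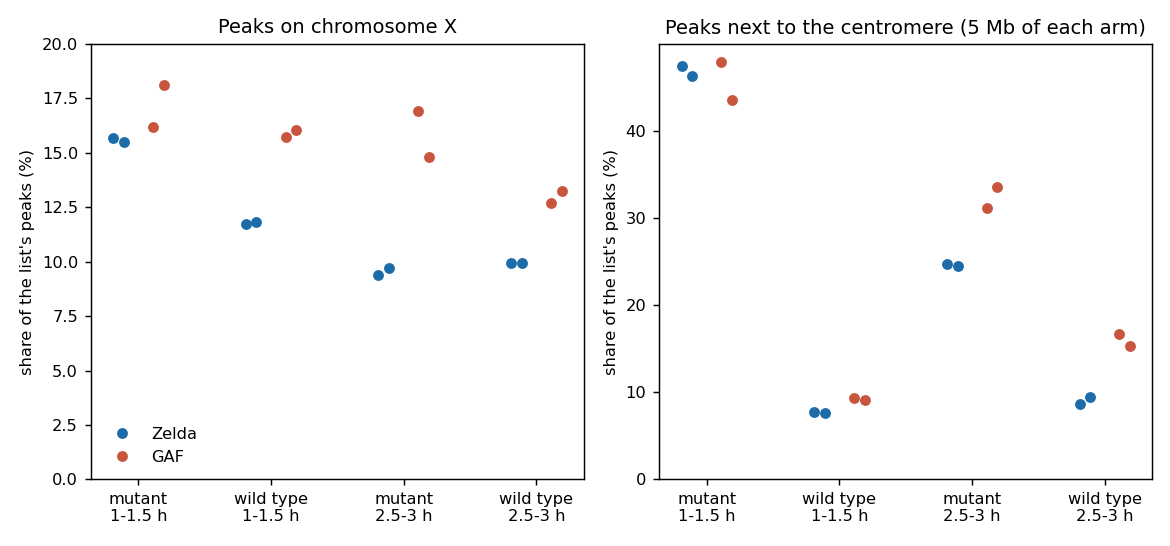
Share of each list's peaks on chromosome X (left) and in the 5 Mb next to the centromere of each arm (right), 1 point per list, for Zelda and GAF in mutant and wild-type embryos at 1-1.5 h and 2.5-3 h. Every GAF point lies above every Zelda point of its group on X, 12.7% and 13.3% against 9.92% and 9.95% of Zelda peaks in wild type at 2.5-3 h.

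Shared loci were mostly at gene ends, Zelda-only regions less so and GAF-only regions least. A region counts as at a gene end when it lies within 500 bp of either end of an annotated gene, since the annotation used gives no strand. This was so for 42.2% of Zelda-only regions, 64.6% of shared loci and 25.7% of GAF-only regions. Without the centromere-proximal parts and chromosomes 4 and Y the shares were 43.3%, 65.5% and 33.9%. A further 36.6% of Zelda-only regions and 48.0% of GAF-only regions lay inside genes away from their ends. Before merging into loci, 61.4% of shared Zelda regions (median 1221 bp) and 58.5% of shared GAF regions (median 883 bp) were at gene ends. Longer regions meet an end window more easily, and these shares were not taken at 500 to 1500 bp. For whole lists the share at gene ends was 46.8% and 45.9% of Zelda peaks and 42.4% and 45.7% of GAF peaks, a difference of 2.28 points that turned to -1.84 points away from the centromeres. Over all 16 lists the difference was -2.12 points, with an exact permutation p of 0.091 and an adjusted p of 0.164. The unadjusted exact permutation p was 0.00772 away from the centromeres, at -4.82 points, and 0.0231 without GAF replicate 1.

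IntS11, Pol II and pSer5 peaks of the same stage were most frequent at shared loci, less frequent at Zelda-only regions and least frequent at GAF-only regions. IntS11 peaks of replicates 1 and 2 overlapped 27.7% and 31.2% of Zelda-only regions, 75.2% and 78.4% of shared loci, and 11.1% and 12.2% of GAF-only regions. Pol II overlapped 51.5% and 48.0% of Zelda-only regions, 83.9% and 81.7% of shared loci, and 18.5% and 16.3% of GAF-only regions. For pSer5, the mark of polymerase at initiation and early elongation, the shares were 60.0% and 59.2% of Zelda-only regions, 88.3% in both lists at shared loci, and 25.5% and 25.4% of GAF-only regions. For each antibody the lists of the 3 classes did not overlap, and the classes stood farther apart than the replicate lists did. Regions of 1 class come from the same libraries and are not replicates, so no test was made.

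The order of the classes was the same among regions of 500 to 1500 bp, where IntS11 overlapped 27.3% and 30.8% of Zelda-only regions, 66.1% and 70.8% of shared loci, and 11.8% and 12.4% of GAF-only regions. All of IntS11, Pol II and pSer5 were present in both lists at 800 Zelda-only regions (20.2%), 2670 shared loci (65.2%) and 75 GAF-only regions (3.83%). None of the 6 lists had a peak at 1291 Zelda-only regions (32.5%), 213 shared loci (5.20%) and 1256 GAF-only regions (64.1%). For IntS11 the excess of Zelda-only over GAF-only regions was 17.8 points. It was 11.7 points without Zelda replicate 1, when the classes rest on single Zelda peaks of the other list. Over whole lists the difference between the factors was smaller, and for IntS11 the other way round: 38.5% ± 2.18 of Zelda peaks lay on IntS11 regions, against 43.9% ± 3.31 of GAF peaks (SD, n = 2 lists each, not overlapping), a difference of -5.44 points. For Pol II regions the share was 55.9% and 53.2% of Zelda peaks and 50.8% and 55.4% of GAF peaks, which overlap, and for pSer5 regions 66.6% and 64.1% of Zelda peaks and 59.0% and 62.9% of GAF peaks. The exact permutation p of each was no lower than 0.333.

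**Figure D2:**
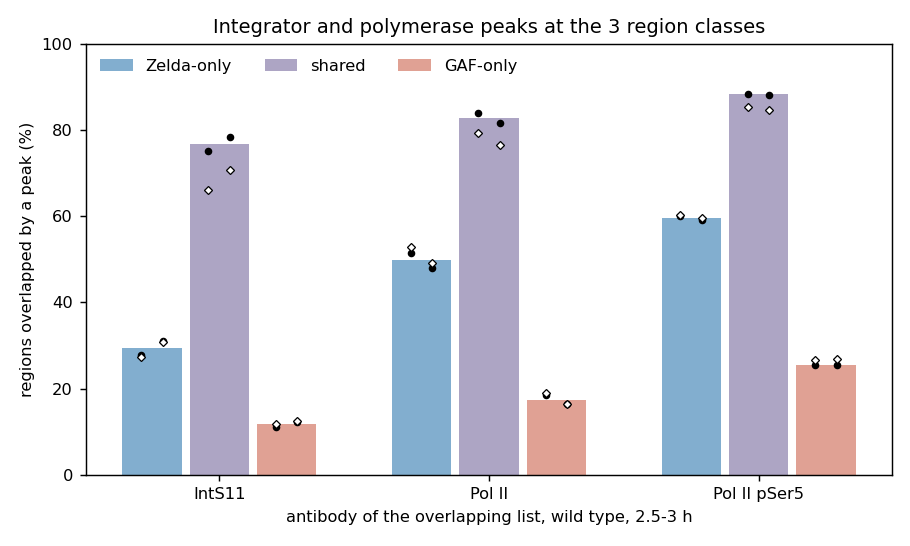
Share of Zelda-only, shared and GAF-only regions that a peak of IntS11, Pol II or pSer5 overlaps in wild type at 2.5-3 h. Bars are means of 2 lists, black points the single lists and open diamonds the same lists over regions of 500 to 1500 bp only. Shared loci stand highest for each antibody, 75.2% and 78.4% for IntS11, and GAF-only regions lowest, 11.1% and 12.2%.

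At the level of genes, both factors met at the genes that pattern the embryo, and Zelda alone was more frequent than GAF alone. Of 14238 genes, 1185 (8.32%) had Zelda and no GAF peak within 500 bp of an end, 3914 (27.5%) had both factors, 332 (2.33%) had GAF and no Zelda peak, and 6275 (44.1%) had neither. The remaining genes had a factor in only 1 of its lists. Leaving out Zelda replicate 2 raised the genes with GAF alone to 501. IntS11 of the same stage was at the ends of 36.5% of all genes in both lists, and of all 9 pair-rule, 22 of 31 proteasome and 2 of 12 ecdysone response genes. The gene counts below are read against these shares, and neighbouring genes can share a peak. Where both factors were present, the shorter Zelda peak exceeded the longer GAF peak at 57.9% of genes and the shorter GAF peak exceeded the longer Zelda peak at 19.5%.

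Genes that divide the embryo into segments carried both factors almost throughout, with long Zelda and short GAF peaks. Of 9 pair-rule genes, which are expressed in stripes, 8 had both and run had Zelda alone at its ends. The Zelda peak was longer than GAF in all lists at all 8 genes with both factors. At eve the longest peak at a gene end measured 17119 and 17175 bp for Zelda and 1197 and 2542 bp for GAF. At ftz it measured 22374 and 28263 bp for Zelda and 820 and 787 bp for GAF. At odd it was 10023 and 10070 bp for Zelda and 1220 and 1113 bp for GAF. Every Zelda peak at these genes was several times the length of every GAF peak. The median peak over the pair-rule genes with the factor was 8689 bp for Zelda and 938.75 bp for GAF, against 897 and 779.5 bp over all genes with the factor.

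Of 13 gap genes, which act upstream of the pair-rule genes, 11 had both factors, and Zelda was longer in all lists at 10 of these. At hkb the peak measured 9213 and 9494 bp for Zelda and 450 and 618 bp for GAF. At tll, which like hkb patterns the ends of the embryo, it measured 8752 and 8851 bp for Zelda and 1240 and 1187 bp for GAF. The POU gene nub had no Zelda peak at its ends and GAF peaks of 557 and 641 bp there, though within the gene span Zelda had peaks of up to 3461 and 5568 bp. Of 25 dorsoventral genes, 19 had both, twi had Zelda alone and sog had GAF alone at its ends. At twi, the mesoderm determinant, the Zelda peaks at the gene ends measured 1184 and 2472 bp. At sog, a secreted inhibitor of Dpp signalling, GAF peaks of 457 and 413 bp lay at an end, and Zelda peaks of up to 1031 and 1268 bp lay only farther inside the gene. A class at the gene ends is thus no statement about the enhancers within a gene.

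Of 8 Hox genes, 6 had both factors, and Abd-B and pb had Zelda alone at their ends. Abd-B, the most posterior Hox gene, had end peaks of 9333 and 11904 bp for Zelda, and within its span Zelda had 16 peaks in each list and GAF had 9 and 6. At Antp the peak measured 8459 and 9354 bp for Zelda and 3415 and 3643 bp for GAF. Of 16 Notch target and Bearded family genes, which restrain or follow Notch signalling, 13 had both factors, and Zelda was longer in all lists at 12 of them. At Tom the peak measured 12587 and 12858 bp for Zelda and 3402 and 3323 bp for GAF. The corepressor gene gro was the 1 with GAF longer in all lists, though by little, with 1695 and 1620 bp for Zelda and 1750 and 1743 bp for GAF.

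Genes of the first zygotic wave and of cellularization mostly carried both factors, and some had Zelda alone. Of 12 such genes, 3 (25%) had Zelda alone, 8 (66.7%) had both and none had GAF alone. Over all genes these shares were 8.32%, 27.5% and 2.33%, so a list of 12 is too short to show a lack of GAF alone. At slam, which drives membrane growth between nuclei, Zelda peaks measured 5880 and 6337 bp and no GAF peak lay at the ends. At nullo, which acts in the same furrows, Zelda peaks measured 2891 and 1377 bp with no GAF peak. Elba1, a subunit of an early insulator complex, had Zelda peaks of 776 and 759 bp with no GAF peak. All 13 cell cycle genes of the midblastula transition had both factors. Among them fzr, which ends the embryonic cycles, was longer for GAF, with 1207 and 1605 bp for Zelda and 2876 and 3017 bp for GAF, whereas trbl, an inhibitor of String, was longer for Zelda, with 9335 and 9415 bp against 2565 and 2522 bp for GAF.

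Ecdysone response genes stood on the other side. Of 12 genes of this hormone pathway, 1 had Zelda alone, 3 had both and 5 had GAF alone, against 2.33% of all genes with GAF alone. Hr3, a nuclear receptor, had end peaks of 2609 and 3001 bp for GAF and none for Zelda. The neighbouring gene Hdc had GAF end peaks of the same lengths. Within the span of Hr3 GAF had 10 and 11 peaks and Zelda 1 in each list. Eip75B, another nuclear receptor, had GAF peaks of 1139 and 1139 bp at its ends and no Zelda peak there, but within its span Zelda had 9 and 17 peaks. Hr4 had GAF peaks of 718 and 820 bp, Eip93F, a regulator of larval cell death, 655 and 800 bp, and the transporter gene E23 400 and 478 bp, with no Zelda peak at their ends. The receptor partner usp went the other way, with Zelda peaks of 416 and 383 bp and no GAF peak. With end windows of 250 and 1000 bp, 4 and 6 genes of the list had GAF alone.

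Heat shock genes, the classic GAF targets, mostly carried both factors, and the Hsp70 copies had the longer GAF peaks. Of 16 genes, 1 had Zelda alone, 12 had both and 2 had GAF alone. Hsp70Ba had peaks of 452 and 378 bp for Zelda and 3537 and 3533 bp for GAF. Hsp70Aa had 376 and 452 bp for Zelda and 2770 and 2785 bp for GAF. The copies with GAF alone were Hsp70Bbb, with 1542 and 3159 bp, and Hsp70Bc, with 881 and 890 bp. The Hsp70 genes are near-identical copies, so which copy a peak belongs to is uncertain. Hsp83, a chaperone gene that is also active without heat, had 1327 and 2274 bp for Zelda and 914 and 843 bp for GAF, and Hsf, the heat shock regulator, 2431 and 2407 bp against 1462 and 1408 bp.

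**Figure D3:**
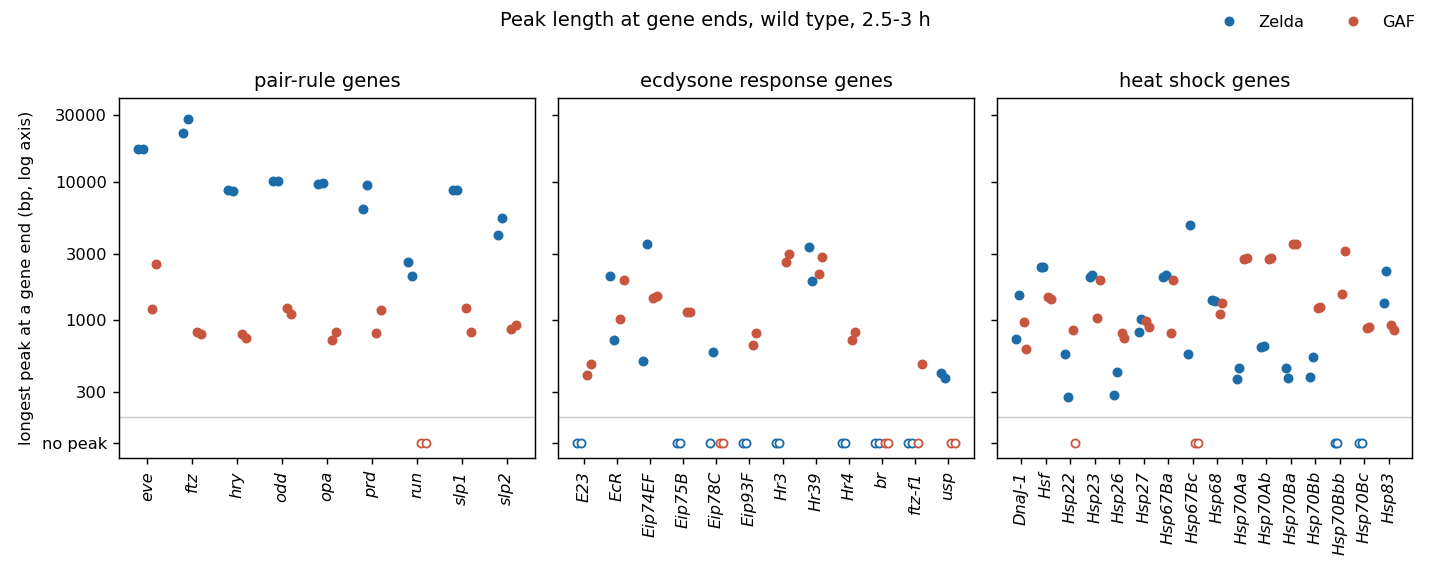
Longest Zelda and GAF peak within 500 bp of a gene end at pair-rule, ecdysone response and heat shock genes, in bp on a log axis, 1 point per list, wild type, 2.5-3 h. Open points at the bottom mark lists with no peak. Zelda points lie above GAF points at every pair-rule gene, and 5 ecdysone response genes have GAF points only.

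Zelda peaks were the longer at snRNA genes and GAF peaks at histone genes. Of 32 snRNA genes, 24 had both factors, and Zelda was longer in all lists at all 24. At snRNA:U4:38AB, a spliceosomal snRNA, the peak measured 3486 and 3849 bp for Zelda and 832 and 767 bp for GAF. Of 111 replication-dependent histone genes, 78 had both and 15 had GAF alone, and GAF was longer in all lists at 75 of the 78. The histone genes lie in a tandem repeat of near-identical units, so their peaks cannot be assigned to single copies. Of 260 microRNA genes, 19 had Zelda alone, 43 had both and 9 had GAF alone. The longest with Zelda alone was mir-9a, with 11115 and 13286 bp, and the Zelda-only microRNAs included mir-1, known in muscle, with 2278 and 1450 bp.

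Proteasome genes leaned to Zelda. Of 31 proteasome subunit genes, 9 had Zelda alone, 10 had both and none had GAF alone, so that Zelda alone made 29.0% against 8.32% of all genes. Their peaks were short, with medians of 609 bp for Zelda and 549.75 bp for GAF. At Prosalpha4 Zelda peaks measured 822 and 789 bp, and at Rpt6 374 and 335 bp, with no GAF peak. With peaks of at least 500 bp alone, 5 of 31 proteasome genes had Zelda alone, against 1321 of all 14238 genes. With equally many longest peaks of each list, 5 proteasome genes had Zelda alone and 1 had GAF alone, against 812 and 494 of all genes. Of 92 ribosomal protein genes, 11 had Zelda alone, 52 had both and 1 had GAF alone. Of 14 Integrator subunit genes, 7 had both and none had a single factor in both of its lists with the other absent. IntS11 itself had 652 and 476 bp for Zelda and 1581 and 1821 bp for GAF.

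Regulators of chromatin mostly carried both factors. All 5 pioneer factor genes had both, and Zelda was longer in all lists at 4 of them. At zld the end peak measured 2332 and 2763 bp for Zelda and 1609 and 1324 bp for GAF, and at Trl, the GAF gene, 1431 and 1224 bp for Zelda and 8283 and 8084 bp for GAF. Each factor thus had the longer peak at its own gene. Of 25 Polycomb and Trithorax group genes, 19 had both and E(z) had Zelda alone. Zelda was longer in all lists at 11 of the 19 and GAF at 4, near the 57.9% and 19.5% of all genes with both factors. Of the genes with longer GAF peaks, at trx, a histone methyltransferase that keeps Hox genes active, the peak measured 4439 and 4470 bp for Zelda and 10021 and 10699 bp for GAF. At fs(1)h, a BET bromodomain gene, it measured 1497 and 1534 bp for Zelda and 6291 and 6251 bp for GAF. Among segment polarity genes ptc, the Hedgehog receptor, also had longer GAF peaks, with 2303 and 2564 bp for Zelda and 7131 and 8383 bp for GAF.

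Muscle, gut enzyme and larval cuticle genes, which act in tissues not yet formed, mostly had neither factor at their ends. This held for 9 of 13 muscle genes, 10 of 15 gut enzyme genes and 10 of 13 larval cuticle genes, against 44.1% of all genes. It was not particular to them, as 5 of 8 maternal Toll pathway genes and 167 of 260 microRNA genes also had neither. The count was 4 of 9 for neuronal and 5 of 12 for fat body genes, near the share of all genes. Among the exceptions the yolk protein gene Yp3 on X had GAF alone, with 2270 and 2211 bp, and elav, the neuronal RNA-binding protein, had 3183 and 3596 bp for Zelda and 3419 and 3320 bp for GAF.

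**Figure D4:**
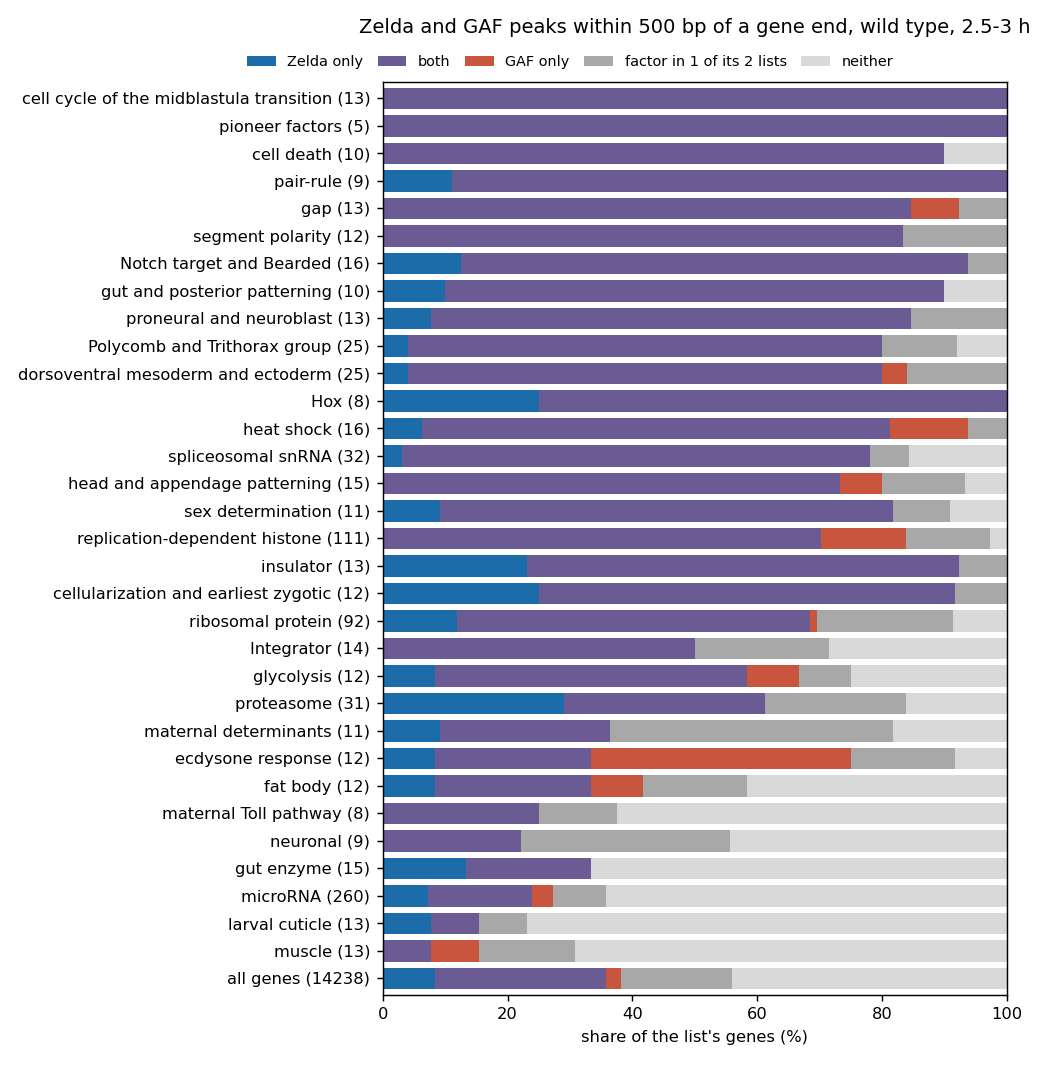
Share of the genes of each list, with the number of genes in brackets, that had Zelda alone, both factors, GAF alone, a factor in only 1 of its 2 lists, or neither, within 500 bp of a gene end in wild type at 2.5-3 h. The lowest bar gives all 14238 genes, with 8.32% Zelda alone, 27.5% both and 2.33% GAF alone, and the ecdysone response bar has the widest GAF-alone part, 5 of 12 genes.

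At 1-1.5 h, Zelda peaks lay at most Zelda-only regions and shared loci. GAF peaks of that stage lay at most shared loci and at a smaller share of GAF-only regions. The early wild-type Zelda lists were larger, with 11681 and 11003 peaks against 6543 and 5949 for GAF. The part of list size in these shares was not tested. The Zelda lists of wild type at 1-1.5 h overlapped 80.7% and 74.7% of Zelda-only regions, 96.3% and 94.8% of shared loci, and 24.5% and 21.0% of GAF-only regions. The GAF lists of that stage overlapped 15.1% and 10.4% of Zelda-only regions, 83.5% and 77.9% of shared loci, and 56.2% and 51.3% of GAF-only regions. Of the 4095 shared loci, 2986 (72.9%) had both factors in both early lists, 408 Zelda alone, 25 GAF alone and 71 neither. Early IntS11 overlapped 20.7% and 19.7% of shared loci, and 1.44% and 1.39% of Zelda-only regions. Away from the centromeres the early GAF share at GAF-only regions was 69.9% and 64.5%. The excess of early Zelda at shared loci over Zelda-only regions was 17.8 points, 14.9 points at 500 to 1500 bp and 28.9 points without Zelda replicate 1. The excess of early GAF at shared loci over GAF-only regions was 26.9 points, 17.0 points at 500 to 1500 bp and 15.0 points away from the centromeres. Over genes, early Zelda lay at the ends of 45.5% of all genes in both lists and early GAF at 28.2%. At pair-rule genes early Zelda was at 9 of 9 and early GAF at 8, at ecdysone response genes early Zelda was at 5 of 12 and early GAF at 8, and at heat shock genes early Zelda was at 14 of 16 and early GAF at all 16. In wild type at 1-1.5 h 9.34% and 9.09% of GAF peaks were centromere-proximal.

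In the mutant at 2.5-3 h, GAF remained at GAF-only regions more often than at shared loci. For Zelda the comparison changed with the range of region lengths taken. GAF peaks of the mutant overlapped 49.1% and 63.7% of GAF-only regions, 31.1% and 37.7% of shared loci, and 0.479% and 1.89% of Zelda-only regions. The excess of GAF-only regions over shared loci was 22.0 points, 39.4 points at 500 to 1500 bp and 9.17 points without GAF replicate 2. Without GAF replicate 1 it was 14.7 points. Zelda peaks of the mutant overlapped 12.1% and 7.73% of Zelda-only regions, 28.4% and 23.7% of shared loci, and 5.05% and 3.98% of GAF-only regions. At 500 to 1500 bp Zelda-only regions and shared loci had nearly the same Zelda share, 9.78% and 5.43% against 9.80% and 7.05%. This range holds 1999 of the 4095 shared loci. Length thus cannot be told apart from which loci the range leaves out. Of the 4095 shared loci, 388 had both factors in both mutant lists, 418 Zelda alone, 719 GAF alone and 1909 neither.

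The genes that held a factor in the mutant differed by list. Zelda was at the ends of 4.54% of all genes in both mutant lists and GAF at 8.72%. Mutant Zelda was found at all 16 Notch target and Bearded genes, at 8 of 9 pair-rule genes and at 11 of 12 first-wave and cellularization genes. Mutant GAF was found at 7, 4 and 4 of those genes. At heat shock genes mutant Zelda was found at 1 of 16 genes and mutant GAF at 8. At Hsp70Aa the mutant GAF peaks measured 2183 and 2351 bp, against 2770 and 2785 bp in wild type. At trx the mutant GAF peaks measured 9942 and 10299 bp, against 10021 and 10699 bp in wild type, whereas mutant Zelda had no peak at its ends. At eve the mutant Zelda peaks measured 7308 and 5220 bp, against 17119 and 17175 bp in wild type. Peak lengths can move with depth, which these lists do not give, and its part in the mutant values was not tested.

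**Figure D5:**
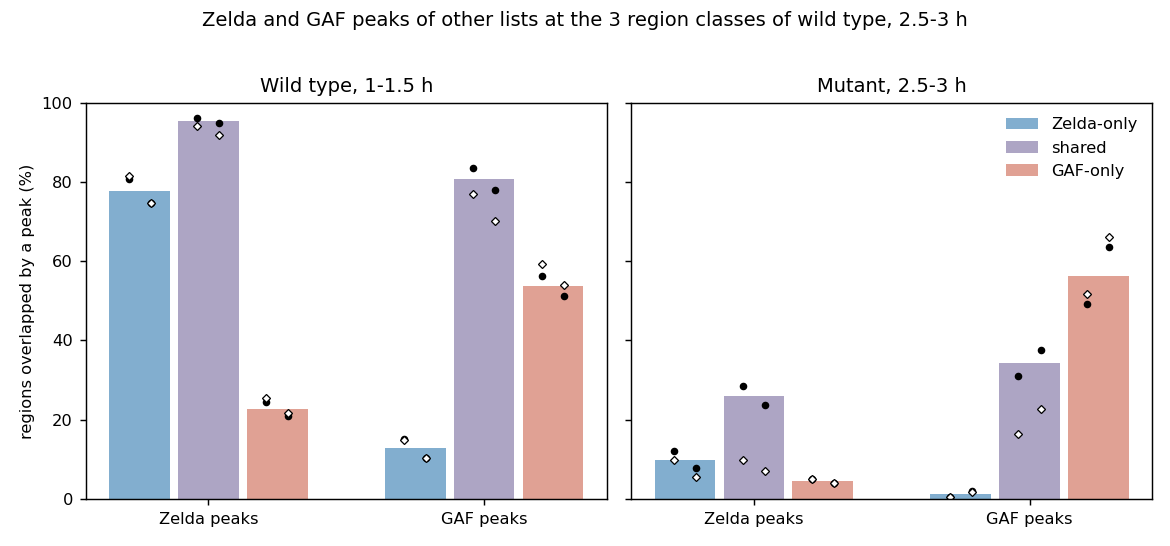
Share of the wild-type 2.5-3 h region classes that a Zelda or GAF peak overlaps in wild type at 1-1.5 h (left) and in the mutant at 2.5-3 h (right). Bars are means of 2 lists, black points the single lists and open diamonds regions of 500 to 1500 bp only. In the mutant the GAF bar is highest at GAF-only regions, 49.1% and 63.7%, and the Zelda diamonds of Zelda-only and shared regions lie together.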

How the data were processed

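ChIP-seq peak lists of wild-type and mutant embryos were used. The deposited values are positions, not a score or signal: each list gives chromosome, start and end of a peak in 3 columns, with no height, fold or p-value, so depth is unknown and no interval for counting error can be given. Per the submitters' processing notes, the reads were handled on build dm6 with the peak caller MACS2 2.2.7.1, the aligner Bowtie2 2.2.5, the trimmer Trimmomatic 0.39, and with deepTools 3.5.1 and SAMtools 1.18. Settings and control libraries are not given in the sources used here. Each deposited list belongs to 1 sample.

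Peaks of the paired lists of a factor were merged, and merged intervals met by both lists were kept as regions. Overlap needed 1 bp. Gene ends came from RefSeq gene records of the same assembly (14238 genes), which carry no strand or exons, with windows of 500 bp. A gene had a factor when both lists had a peak there. In the 4 lists 11 intervals off the named chromosomes were left out. List measures were compared by exact permutation (Python 3.11.15, NumPy 2.4.6, SciPy 1.17.1, Matplotlib 3.10.9), with Benjamini-Hochberg adjustment over 9 measures, and the code was tested on simulated data. Named genes were members of the gene lists plus, for each class, the 10 genes with the longest end peaks, and named loci were the 10 longest regions of each class. The members and the gene lists were chosen with earlier results of these data known. No sequence is shown, since the reference used holds gene records only.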

Additional observations from a re-analysis of the deposited data

Results flagged for a closer look

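The order of Zelda and GAF at 2.5-3 h in wild type was turned round in other groups for some list measures, with every list of one factor beyond every list of the other. These reversals were not tested. Peak number as a log2 ratio of Zelda to GAF was -0.75 in the mutant at 1-1.5 h, where Zelda had 2960 and 2584 peaks and GAF 5336 and 4045, against 0.35 in wild type at 2.5-3 h. The log2 ratio of covered length was -1.08 in the mutant at 1-1.5 h, against 0.62 in wild type at 2.5-3 h. The log2 ratio of median peak length was -0.21 in the mutant at 1-1.5 h and -0.38 in the mutant at 2.5-3 h, against 0.21 in wild type at 2.5-3 h.

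The share of peaks at gene ends was lower for Zelda, with Zelda minus GAF at -4.94 points in wild type at 1-1.5 h, -0.825 points in the mutant at 1-1.5 h and -4.97 points in the mutant at 2.5-3 h, against 2.28 points in wild type at 2.5-3 h. The share of peaks on pSer5 regions differed by -10.7 points in wild type at 1-1.5 h, with 53.5% and 54.8% of Zelda peaks and 64.6% and 65.0% of GAF peaks, against 4.41 points in wild type at 2.5-3 h.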

How the results depend on the processing

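The X share of peaks (Zelda minus GAF over 4 stage and genotype groups) kept its direction under all alternatives run, -6.41 to -3.68 points. Its unadjusted exact permutation p was highest with the replicate number as a block, at 0.00781. No adjusted p was computed for the alternatives, so whether the adjusted call holds under them was not tested. Peak number over the same groups, 0.07 as log2 ratio, turned to -0.00697 with peaks of at least 500 bp, and the late wild-type gene-end difference turned to -1.84 points on distal arms (arms without their centromere-proximal 5 Mb and without 4 and Y). Over all groups the gene-end difference of -2.12 points passed the threshold on unadjusted exact permutation p alone in some settings. This p was 0.0324 with windows of 250 bp (-2.87), 0.00772 on distal arms (-4.82) and 0.0231 without GAF replicate 1. No adjusted p was computed for these settings, so they do not change the call on the main difference. Leaving out single late wild-type lists gave differences of -2.52 to -1.71. The cause was not tested. Region counts moved by construction: with equally many longest peaks 2594 were Zelda-only, and with regions in either list 6023 were Zelda-only, 6218 shared and 3183 GAF-only. With peaks of at least 500 bp, 2497 loci were shared, 1117 regions GAF-only and 2482 genes had both factors, and distal arms held 1260 GAF-only regions. Leaving out a list gave 3315 to 6541 Zelda-only regions, 1629 to 3510 GAF-only regions and 404 to 501 genes with GAF alone.

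Class differences in overlap kept their sign under every alternative. At 500 to 1500 bp the Zelda-only minus GAF-only difference was 33.3 points for Pol II and 33.3 for pSer5, and on distal arms 28.6 and 27.6. Leaving out a list gave 28.1 to 31.3 for Pol II, 31.1 to 33.2 for pSer5 and 11.7 to 19.0 for IntS11. The shared minus Zelda-only difference for IntS11 was 47.9 with overlap of 50% of the shorter interval, 39.4 at 500 to 1500 bp, 48.2 on distal arms and 43.2 to 51.6 with a list left out. For early GAF, shared minus GAF-only was 17.0 at 500 to 1500 bp, 15.0 on distal arms and 25.3 to 36.8 with a list left out, and for early Zelda, shared minus Zelda-only was 14.9 at 500 to 1500 bp and 17.7 to 28.9 with a list left out. For mutant GAF, GAF-only minus shared was 39.4 at 500 to 1500 bp and 9.17 to 26.5 with a list left out. For mutant Zelda, Zelda-only minus shared was -0.826 at 500 to 1500 bp, -16.5 on distal arms and -17.0 to -13.0 with a list left out. The X and centromere-proximal shares themselves, all of their alternatives, and the alternatives on distal arms were chosen after seeing the data.

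In late wild type (2 pairs), with the replicate number as a block, the unadjusted exact permutation p was 0.5. This held for peak number, covered length and gene-end share. Over all groups these measures gave 0.75, 0.906 and 0.148. The X share gave 0.00781 and the centromere-proximal share (-3.78 points) 0.0547. Without the block the centromere-proximal share had an unadjusted exact permutation p of 0.0262, and its adjusted p of 0.118 already missed the threshold. The replicate differences of Zelda and GAF correlated at 0.0142 over 15424 regions. This value cannot show whether the numbers pair the samples. Regions with peaks of only 1 factor are among them and have no replicate difference for the other.

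The planned motif search was not run, since no sequence was at hand. The lists give no depth or peak height, so a missing peak is not a measured absence, and the number and length of peaks can follow depth, which was not tested. Gene-end counts cannot separate starts from 3′ ends or see enhancers within genes. Repeat genes, such as histones and Hsp70, cannot be resolved.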

Other observations

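At 2.5-3 h in wild type, 8.32% of genes had Zelda alone, and Pol II of the same stage was at the ends of 80.9% and 80.4% of these 1185 genes. Pol II was at 96.1% and 95.6% of the 3914 genes with both factors, at 39.5% and 37.3% of the 332 genes with GAF alone and at 18.5% and 16.7% of the 6275 genes with neither. IntS11 of the same stage was at 54.8% and 59.6% of genes with Zelda alone, 87.2% and 90.5% of those with both, 21.1% and 24.7% of those with GAF alone and 5.43% and 6.92% of those with neither. The median gene span was 1993 bp for genes with Zelda alone, 3448 bp for both and 4898.5 bp for GAF alone.

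In larvae labelled 48AEL, Pol II of the zygotic mutant overlapped 21.5% and 24.9% of Zelda-only regions, 52.1% and 55.9% of shared loci, and 19.4% and 21.2% of GAF-only regions. In wild-type larvae it overlapped 28.0% and 19.1% of Zelda-only regions, 58.0% and 49.4% of shared loci, and 25.8% and 18.7% of GAF-only regions. The values of the genotypes overlapped in each class.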
